A study of Mus musculus with 18 samples.

Results

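The question was whether the effect of tert-butylhydroquinone (TBHQ), an antioxidant food preservative, on gene expression differed between macrophages stimulated with lipopolysaccharide (LPS) and with polyinosinic:polycytidylic acid (PIC). The quantity measured was an interaction: the log2 change from PIC to PIC + TBHQ minus the log2 change from LPS to LPS + TBHQ, for every gene. It rested on 12 of the 18 libraries of the series, 3 in each of 4 groups, and was taken over all 13691 genes with enough counts of 56748 in the table. LPS cells were stimulated over 12 h at a dose of 0.1 µg/mL, and PIC cells likewise at 20 µg/mL. LPS + TBHQ and PIC + TBHQ cells spent the preceding 4 h in TBHQ at 5 µM before the same stimulus. The other 6 libraries, the untreated control and cells harvested after 4 h of 5 µM TBHQ without a stimulus, are not in the contrast but were fitted together with the 12, so they had a part in the estimate of the spread, the scaling and the filter, and they supply the reference levels below.

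All groups were RAW 264.7 cells, an immortalised mouse line with macrophage properties that counts as a single genetic background, taken at an early passage and grown in wells of culture plates. The labels number the replicates without saying what separates them, and the study's methods call them biological replicates, so the p-values measure the spread between these 3 samples a group. The methods dissolve TBHQ in DMSO and do not say whether stimulated cells without TBHQ received the solvent, so TBHQ and its solvent cannot be told apart. The stimuli were given at different doses, so the kind of stimulus and its strength cannot be told apart either. No group kept TBHQ for the full time without a stimulus. The labels and methods give no harvest time for the untreated control. In each comparison with that control, treatment and time in culture therefore cannot be told apart.

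LPS is a component of the outer membrane of Gram-negative bacteria and is sensed at the cell surface by TLR4, which signals through MyD88 to NF-κB and, from endosomes, through TRIF to IRF3 and type I interferon. PIC imitates double-stranded RNA and is sensed by TLR3 in endosomes and by the RIG-I-like receptors in the cytosol. Secreted interferon then acts through its receptor to raise the interferon-stimulated genes, whereas NF-κB raises cytokines, chemokines and its own inhibitors. TBHQ is an electrophile precursor that modifies KEAP1 and so releases NRF2, the transcription factor of antioxidant and glutathione genes.

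The 12 libraries held 14423390 to 18851626 counts on genes, with a median of 15857270. The LPS libraries held 14423390, 14432272 and 14502107, fewer than each of the LPS + TBHQ libraries (16624933, 16487653 and 17533571). The part of this difference in depth in the results was not tested. A gene with 3 counts in a library of these depths stood at 0.159 to 0.208 CPM. The cells carried the markers of macrophages: of 10 marker genes 9 were expressed well enough to be tested, the most abundant, *Lyz2*, lay at 4023 to 6022 CPM (the count of a gene relative to the total of its library, which for the genes below was scaled by TMM), and *Mertk* was at or near 0. The summed level of the 10 markers was 8727 to 9158 CPM with LPS, 9909.9 to 10238 with LPS + TBHQ, 8405 to 8720.4 with PIC and 9209 to 9755 with PIC + TBHQ. Of the 9 tested markers 0 had an interaction at an FDR below 0.05 in edgeR or limma with voom weights, nor any of the 7 with an adjusted p in DESeq2, and 3 had an unadjusted p below 0.05 in edgeR. The erythroid markers were at 0 in all 12 libraries, and the sums for fibroblast, epithelial, T cell and B cell markers stayed at or below 0.759 CPM, and those for neutrophil, dendritic cell and endothelial markers at or below 3.74 CPM. The osteoclast markers, led by *Ctsk*, were not low: their sum was 416 to 433 CPM with LPS, 366 to 392 with LPS + TBHQ, 380.2 to 399 with PIC and 351 to 363 with PIC + TBHQ. In such bulk RNA a change in the number of cells of a kind and a change in RNA per cell cannot be told apart.

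Genes that TBHQ changed under both stimuli mostly moved in the same direction, but many were called under 1 stimulus only. TBHQ changed 3274 genes with LPS and 4285 with PIC at an FDR below 0.05, the false discovery rate, which is edgeR's p-value after Benjamini-Hochberg adjustment across the tested genes, and 5241 genes changed under at least 1 stimulus. Of the 2318 genes called under both, 2309 moved in the same direction. Across all tested genes the log2 effects with LPS and with PIC had a Pearson correlation of 0.589, and across the 10421 genes with a mean of at least 50 counts it was 0.803. These values describe genes, which are not independent replicates, and the effects compared share no library.

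The interaction itself was called for 251 of the 13691 genes at an FDR below 0.05, or 1.83% of those tested, and 1940 genes had an unadjusted p below 0.05. It was higher than 0 for 113 genes (0.825%) and lower for 138 (1.01%). A positive value means that the gene stood relatively higher after TBHQ with PIC than with LPS. All 251 genes were also changed by TBHQ under at least 1 stimulus, which makes them 4.79% of the 5241. The sizes were mostly modest, with a median absolute interaction of 0.32 among the called genes on the log2 scale. Of these genes 19 passed 1 in size, of which 14 were positive. The largest in size was -3.94, for a gene that TBHQ lowered more with PIC. The largest positive value was 1.56, for a gene lowered more with LPS. The median standard error of the interaction from the spread of the replicates was 0.094 among genes with at least 50 counts, and the smallest called interaction was 0.17 in size. The balance of directions depended on how libraries were scaled to each other: when libraries were scaled by their totals 235 genes were higher and 74 lower, and with RLE size factors 95 and 176. DESeq2, which also differs in its test and its filter, called 101 higher and 260 lower, and which of these differences mattered was not tested. DESeq2 gives no adjusted p to genes that its filter leaves out, so its counts in most of the lists below cover fewer genes than those of edgeR and limma. Leaving out LPS + TBHQ replicate 2 left 160 called genes, and keeping every gene with a count gave 380. Leaving out LPS replicate 2 raised the number of lower calls to 239.

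Just inside the threshold lay *Unc119*, *Plekha3*, *Tmem165*, *Smcr8* and *Lancl2*, with FDRs of 0.0493 to 0.0496 and interactions of 0.34, 0.33, -0.25, -0.18 and -0.34. Just outside lay *Xdh*, *Slc19a2*, *Thoc2*, *Bub1b* and *Eif1a*, with FDRs of 0.05 to 0.0533 and interactions of 0.33, -0.35, -0.23, -0.26 and -0.19. The called genes were then sorted by the direction of TBHQ and by the stimulus with the larger effect. TBHQ lowered 68 genes more with LPS, lowered 108 more with PIC, raised 23 more with LPS and raised 43 more with PIC, while 9 were called in opposite directions. A gene lowered or raised more with a stimulus need not be called under the other stimulus. The class raised more with LPS held 9 genes without LPS + TBHQ replicate 2 and 52 without LPS replicate 2, the class raised more with PIC held 16 without LPS replicate 3, and the class lowered more with PIC held 69 without LPS + TBHQ replicate 1 and 173 without LPS replicate 2. The class lowered more with LPS held 53 to 66 genes whichever library was left out. With total library size as scaling the classes held 60 lowered more with PIC, 10 raised more with LPS and 131 raised more with PIC, in DESeq2 193 lowered more with PIC and 53 raised more with LPS, in edgeR on the 12 libraries alone 26 raised more with PIC, and among genes with a mean of at least 50 counts 36 raised more with LPS. Without a filter on low counts 59 were raised more with LPS and 14 were opposite. The genes named first in each class below were chosen among those whose libraries with and without TBHQ did not overlap in the stimulus with the larger effect, or in both stimuli for opposite genes, so that lack of overlap follows from the choice. Of the 251 genes, 243 were protein coding, and 2 had a mean under 50 counts (*Gm45509* and *Rhoj*, named for this after their values were seen).

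**Figure D1:**
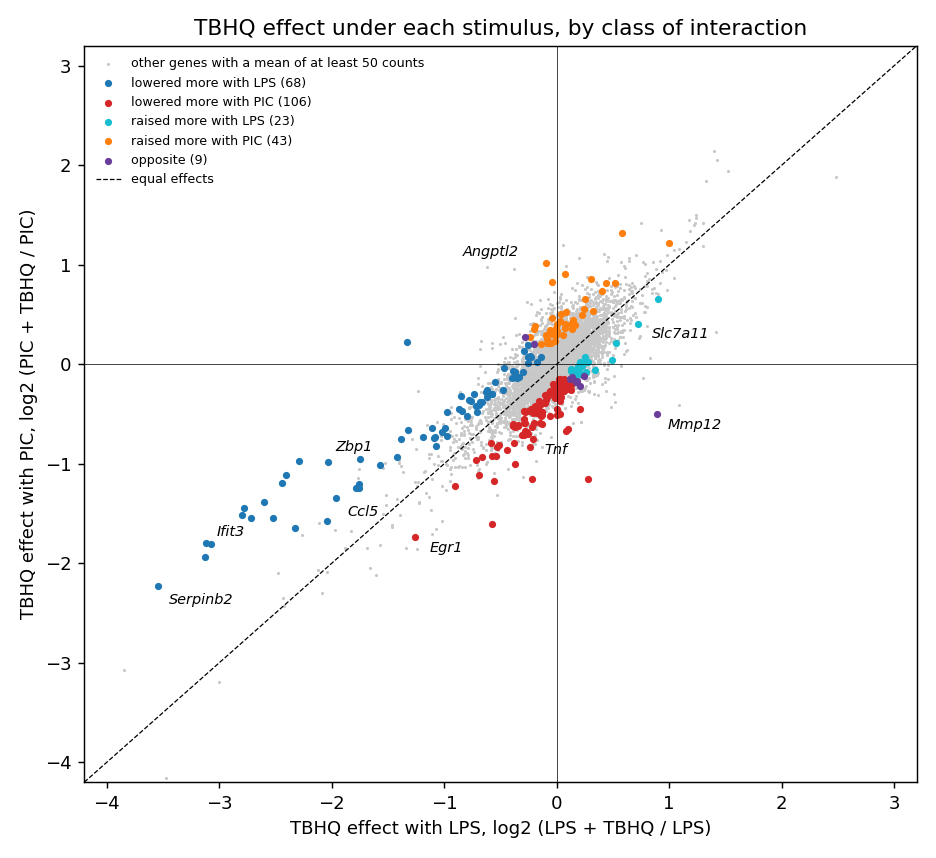
The log2 change by TBHQ with LPS (horizontal axis) is plotted against that with PIC (vertical axis) for the 10421 genes with a mean of at least 50 counts; each point is a gene, coloured points are called interactions by class and the dashed line marks equal effects. Genes lowered more with LPS (68) lie above the line on the left, with *Serpinb2* at -3.54 and -2.23, and genes lowered more with PIC lie below it, while *Mmp12* at 0.89 and -0.50 stands apart.

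Interferon-stimulated genes made up a large share of those that TBHQ lowered more with LPS. Of the 68, 30 were in a list of 59 interferon-stimulated antiviral genes, and the median change by TBHQ over the 68 was -0.92 with LPS and -0.48 with PIC. The order of these medians follows from the rule of the class. Among the genes with the largest interactions, *Ifit3* (ENSMUSG00000074896, chromosome 19, 34560931 to 34566131, forward strand) encodes a protein that binds other IFIT proteins on viral RNA. *Ifit3* stood at 56.9, 51.7 and 51.9 CPM under LPS, 7.21, 4.64 and 6.55 under LPS + TBHQ, 91.1, 104 and 88.1 under PIC, and 27.9, 30.4 and 23.2 under PIC + TBHQ. The LPS + TBHQ libraries were the lowest of the 12. TBHQ left 11.5% of the *Ifit3* level with LPS and 28.8% with PIC, an interaction of 1.32 ± 0.24 (SE, FDR = 6.0e-07). *Ifit3* shares 51.2% of its transcript words of 50 bases with *Ifit3b*, so counts of the pair could be split between them, and *Ifit3b* itself had an interaction of 1.22.

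*Oasl2* (ENSMUSG00000029561, chromosome 5, 115034997 to 115050295, forward strand), a member of the oligoadenylate synthetase family, was measured at 80, 73.9 and 71.4 CPM under LPS, 14.1, 14.2 and 14 under LPS + TBHQ, 120.1, 112 and 109 under PIC, and 55.7, 52.1 and 50.5 under PIC + TBHQ. The replicates lay close together within each group. TBHQ changed it by -2.41 ± 0.049 (SE) with LPS and by -1.11 ± 0.057 with PIC, an interaction of 1.30 ± 0.075 (SE, FDR = 1.1e-11). *Zbp1* (ENSMUSG00000027514, chromosome 2, 173048405 to 173060716, reverse strand), a sensor of Z-form nucleic acids that can trigger necroptosis, stood at 109, 99.9 and 99.4 CPM under LPS, 24.9, 24.8 and 25.6 under LPS + TBHQ, 134, 142 and 131 under PIC, and 70.4, 68.9 and 66.5 under PIC + TBHQ. With LPS, TBHQ left 24.4% of *Zbp1* and with PIC 50.6%, an interaction of 1.05 ± 0.063 (SE, FDR = 3.9e-11). The fall with LPS was thus the steeper, and neither pair of groups overlapped.

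Some genes of guanylate-binding proteins, interferon-induced GTPases that attack vacuoles of pathogens, were in this class. *Gbp2* (ENSMUSG00000028270, chromosome 3, 142326363 to 142343769, forward strand) was at 37.5, 40.3 and 43.1 CPM under LPS, 4.73, 6.67 and 5.93 under LPS + TBHQ, 63.8, 64.5 and 64.1 under PIC, and 24, 23.5 and 20.3 under PIC + TBHQ. The interaction was 1.29 ± 0.17 (SE, FDR = 1.9e-06) for *Gbp2*, 1.33 ± 0.33 (SE, FDR = 2.3e-05) for *Gbp2b* and 1.24 ± 0.099 (SE, FDR = 7.7e-11) for *Gbp3*. *Gbp5* and *Gbp7* were called as well, with 1.19 and 0.36. Each of these 5 genes was lowered by TBHQ under both stimuli and more steeply with LPS, whereas *Gbp9* and *Gbp8*, named after their values were seen, were tested and not called, with interactions of 0.51 (FDR = 0.297) and -0.038 (FDR = 0.991). *Gbp2* lost its call in limma on log2(FPKM + 0.1), with an FDR of 0.0605.

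*Ccl5*, a chemokine that attracts T cells and monocytes, stood at 206, 194 and 201 CPM under LPS, 46.8, 54.8 and 52.8 under LPS + TBHQ, 809, 902 and 774 under PIC, and 341, 327 and 312 under PIC + TBHQ. TBHQ lowered it by a log2 change of -1.96 with LPS and -1.34 with PIC, an interaction of 0.62 ± 0.11 (SE, FDR = 1.9e-06). *Irf7*, the transcription factor that amplifies interferon production, had an interaction of 0.63 (FDR = 3.6e-10), and *Rsad2*, whose product viperin makes a chain-terminating nucleotide, one of 0.69 (FDR = 3.6e-07). *Isg15*, a ubiquitin-like modifier, had an interaction of 0.46, and *Usp18*, the protease that removes it, one of 0.30. *Ccl5* lost its call in limma on log2(FPKM + 0.1), with an FDR of 0.067.

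Other members of the class lay outside the interferon list. *Serpinb2*, which encodes plasminogen activator inhibitor type 2, had 12.7, 12.3 and 9.84 CPM under LPS, 0.887, 1.07 and 1.02 under LPS + TBHQ, 74.7, 71.5 and 70.1 under PIC, and 15.4, 15.6 and 15.2 under PIC + TBHQ, and 0 CPM in the 3 control libraries. Its interaction was 1.31 ± 0.14 (SE, FDR = 3.0e-04), and 10.4% of its words are shared with *Serpinb10*. The sign of the *Serpinb2* interaction was reversed on the CPM scale (-46.1) and in limma on log2(FPKM + 1) (-0.016). *Apol9b*, an apolipoprotein L gene with a mean of 81.3 counts, had an interaction of 1.32 ± 0.16 (SE, FDR = 0.00222) and shares 52.3% of its words with *Apol9a*. *Ddit3*, the stress transcription factor CHOP, was at 196, 173 and 179 CPM under LPS, 146, 143 and 137 under LPS + TBHQ, 134, 142 and 131 under PIC, and 127, 129.5 and 127 under PIC + TBHQ. The LPS libraries of *Ddit3* were higher than all others, its interaction was 0.29 ± 0.069 (SE, FDR = 0.00702), and its change by TBHQ with PIC was -0.081 with an FDR of 0.172.

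The comparison on the log2 scale is one of ratios. In CPM the fall with PIC was the larger for some of these genes, whose level with PIC alone was higher: for *Ifit3* TBHQ removed a mean of 47.4 CPM with LPS and 67.1 CPM with PIC, and for *Ccl5* the difference of the differences was -353 CPM. Of the 68 genes, 20 had a difference of differences in CPM with the sign opposite to their log2 interaction, and over all 251 called genes this held for 21. For *Oasl2* the falls in CPM were 61 and 61.2, nearly equal. Which stimulus showed the larger fall therefore depended on the scale for these genes, and the classes given here are those of ratios.

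Of the 59 listed interferon-stimulated genes 58 were tested, and 30 had a higher interaction while 0 had a lower one in edgeR, against 0.825% and 1.01% of all tested genes. Limma with voom weights called 30 higher and 0 lower, DESeq2, with an adjusted p for 46, called 30 higher and 1 lower (*Trim25*), and in edgeR 1 gene was lower at an unadjusted p below 0.05. *Ifi27*, an interferon-inducible gene outside the list, was called lower in edgeR, at -0.26 (FDR = 0.00721), in the class raised more with LPS. The median interaction of the 58 was 0.32, compared with 0.0091 over all tested genes (-0.0058 with RLE size factors), and that of the 58 lay between 0.30 and 0.36 under the other scalings. TBHQ lowered 57 of the 58 with LPS, where 12.2% of all tested genes were lowered, and 58 with PIC, where 15.5% were. The interaction ranged from -1.33 for *Ifi205*, which had a mean of 15.9 counts, to 1.78 for *Mx1*, with a mean of 24. *Trim25*, a ubiquitin ligase that activates RIG-I, had an interaction of -0.093 and an FDR of 0.307. *Adar*, the RNA-editing deaminase, and *Irf9*, an interferon regulatory factor, had interactions of 0.018 and 0.078, both far from the threshold. The genes encoding interferons themselves gave little signal: 0 of 19 type I and type III interferon genes passed the filter, and *Ifnb1* had 35 counts in the 12 libraries together, at most 12 in one.

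Against the untreated control, which supplies the same reference for each group, the levels of the interferon-stimulated genes after LPS + TBHQ were mostly below it. The harvest time of this control is not given. The mean was under that of the control for 47 of the 58 genes with LPS + TBHQ and for 9 with PIC + TBHQ, where this held for 51.1% and 50.1% of all tested genes, and for 38 and 3 of them every library lay under every control library, where 27.1% and 29.3% of all tested genes did so. Without TBHQ the mean was under the control for 1 gene with LPS and 0 with PIC, where 50.5% and 51.3% of all tested genes were. For *Oasl2* the control stood at 33.7, 27.7 and 29.1 CPM, above all LPS + TBHQ libraries and below all PIC + TBHQ libraries. After 4 h of TBHQ without a stimulus, in libraries outside the contrast but in the same fit, 50 of the 58 genes were lower than in the control at an FDR below 0.05, where 14.8% of all tested genes were. *Oasl2* was then at 10.3, 10.8 and 10.8 CPM and *Ifit3* at 5.9, 7.55 and 7.04 CPM, each under its control libraries. Over the whole class of 68, 58 genes were lower at 4 h and 1 was higher, where 14.8% and 14.2% of all tested genes were.

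Genes that act around the interferon response joined the class in small numbers. Of 19 genes of MHC class I presentation and the immunoproteasome, 3 had a higher interaction in edgeR and 0 a lower one, against 0.825% and 1.01% of all tested genes, with a median of 0.25. DESeq2, with an adjusted p for 16, and limma each called 4 higher and 0 lower, and 1 gene was lower at an unadjusted p below 0.05 in edgeR. The 3 called in edgeR were *Tapbp*, the tapasin that loads peptides, *Psmb10*, a catalytic immunoproteasome subunit, and *H2-T23*, which encodes the non-classical molecule Qa-1 and shares 13.6% of its words with other genes. *Tapbp* stood at 357, 346 and 383 CPM under LPS, 234, 236 and 235 under LPS + TBHQ, 435, 437 and 447 under PIC, and 348, 351 and 349.7 under PIC + TBHQ. Within each stimulus every library with TBHQ was lower than those without it, and the interaction was 0.29 ± 0.045 (SE, FDR = 7.2e-04). Of 28 genes of interferon receptors and JAK-STAT signalling, 2 were called higher in edgeR, DESeq2 and limma: *Stat2*, a transcription factor downstream of the interferon receptor, at 0.28 and *Jak3*, the kinase of the common gamma chain, at 0.42. DESeq2 also called *Stat6* lower. *H2-T23*, *Stat2* and *Jak3* lost their call in several fits that lacked 1 library, with FDRs of 0.0962, 0.118 and 0.0765 where it was highest, without LPS replicate 3, LPS replicate 1 and LPS replicate 3, and in limma on log2(FPKM + 0.1). Of 25 genes of the TLR4, TLR3 and RNA-sensing pathways, *Ddx58*, which encodes RIG-I, alone was called in edgeR, DESeq2 and limma, at 0.35 ± 0.054 (SE, FDR = 2.4e-04).

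Promoters were examined because these genes moved together. RefSeq promoters of GRCm38.p6, whose positions cannot be set beside the gene positions of the authors' files given above, from 250 bases before to 50 after each start, were listed for 53 of the 68 genes and for 9560 of all tested genes, which is under the 80% needed for a check over a whole class. So a comparison of classes by motif is void and the shares describe the listed promoters only. The core of the interferon-stimulated response element, searched as GAAANNGAA on both strands, occurred for 24 of the 53 genes, or 45.3%, and for 8.73% of the 9560. Among genes lowered more with PIC it occurred for 12 of 82, or 14.6%. The NF-κB motif, searched as GGGANTTTC, occurred for 1 of the 53, 3 of the 82 and 1.21% of the 9560; both motifs overlapped each other in 4 of all 32851 listed promoters. Of the other motifs searched, AP-1 (TGANTCA) occurred for 13 of the 53 (24.5%), 7 of the 82 (8.54%) and 6.32% of the 9560, the STAT motif (TTCNNNGAA) for 15.1%, 13.4% and 8.2%, and the core of the antioxidant response element (TGACNNNGC) for 13.2%, 24.4% and 17.1%. The antioxidant element occurred for 9 of 21 listed genes raised more with LPS, or 42.9%. It occurred for 6 of 38 raised more with PIC and for 2 of 9 opposite genes. A match is only these letters in the window. The promoters of *Ifit3* (chr19:34583279-34583578, forward strand, 3 matches), *Gbp2b* (chr3:142594597-142594896, forward, 1 match) and *Gbp2* (chr3:142620413-142620712, forward, 1 match) are shown as examples of leading genes of the class that had a match, with matches to the interferon element in capitals; the listed promoters of the leading genes *Oasl2* and *Serpinb2* had none. *Cxcl2* (chr5:90903649-90903948, forward) and *Nfkbia* (chr12:55492598-55492897, reverse) are shown as examples of the few genes lowered more with PIC that had a match to the NF-κB motif, with 1 and 2 such matches in capitals; the promoter of *Nfkbia* also had 1 match to the interferon element and 1 to the antioxidant element, and those of *Ifit3*, *Gbp2b* and *Gbp2* 1 AP-1 match each, all left in lower case.
Ifit3: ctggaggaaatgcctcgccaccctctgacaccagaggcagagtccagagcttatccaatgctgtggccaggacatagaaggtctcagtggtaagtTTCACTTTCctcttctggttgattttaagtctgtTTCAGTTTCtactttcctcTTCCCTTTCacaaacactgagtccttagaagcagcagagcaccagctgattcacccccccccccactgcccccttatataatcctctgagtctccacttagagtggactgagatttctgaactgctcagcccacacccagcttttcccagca
Gbp2b: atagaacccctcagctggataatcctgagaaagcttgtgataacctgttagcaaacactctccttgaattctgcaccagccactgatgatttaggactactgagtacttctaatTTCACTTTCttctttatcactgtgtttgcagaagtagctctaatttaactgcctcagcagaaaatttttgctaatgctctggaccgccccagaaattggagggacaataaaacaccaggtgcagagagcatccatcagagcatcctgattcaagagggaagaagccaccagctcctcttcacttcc
Gbp2: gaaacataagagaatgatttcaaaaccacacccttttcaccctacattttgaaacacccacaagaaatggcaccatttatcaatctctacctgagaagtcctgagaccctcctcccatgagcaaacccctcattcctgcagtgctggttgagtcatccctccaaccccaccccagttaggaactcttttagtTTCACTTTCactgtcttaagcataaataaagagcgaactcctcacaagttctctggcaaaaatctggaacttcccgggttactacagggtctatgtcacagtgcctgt
Cxcl2: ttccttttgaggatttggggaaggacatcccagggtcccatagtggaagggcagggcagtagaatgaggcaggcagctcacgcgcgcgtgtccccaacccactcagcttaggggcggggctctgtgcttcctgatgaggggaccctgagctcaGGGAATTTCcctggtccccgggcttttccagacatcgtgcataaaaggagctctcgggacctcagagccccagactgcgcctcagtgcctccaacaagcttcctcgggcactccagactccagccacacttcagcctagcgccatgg
Nfkbia: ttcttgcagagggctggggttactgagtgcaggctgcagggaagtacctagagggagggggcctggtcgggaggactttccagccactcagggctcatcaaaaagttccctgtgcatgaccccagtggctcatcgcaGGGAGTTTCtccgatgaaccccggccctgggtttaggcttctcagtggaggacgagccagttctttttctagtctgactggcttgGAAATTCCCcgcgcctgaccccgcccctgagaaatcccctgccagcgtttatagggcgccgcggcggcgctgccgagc

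The genes that TBHQ lowered more with PIC included a few cytokine, chemokine and NF-κB genes. Their median TBHQ change was -0.47 with PIC and -0.11 with LPS. The order of these medians follows from the rule of the class. Of the 108, 51 were also lowered with LPS, where 12.2% of all tested genes were. The 108 were chosen for a fall with PIC, and effects under both stimuli were correlated across genes, so this share is a description only. *Tnf* (ENSMUSG00000024401, chromosome 17, 35418357 to 35420983, reverse strand), the cytokine that drives early inflammation, stood at 827, 801 and 794 CPM under LPS, 700.3, 658 and 687 under LPS + TBHQ, 1677, 1694 and 1819 under PIC, and 987, 946 and 991 under PIC + TBHQ. TBHQ left 84.5% of it with LPS and 56.3% with PIC, an interaction of -0.58 ± 0.053 (SE, FDR = 1.8e-08). *Cxcl2* (ENSMUSG00000058427, chromosome 5, 91051730 to 91053797, forward strand), a neutrophil-attracting chemokine, was at 1992, 2113 and 1618 CPM under LPS, 1734, 1618 and 1592 under LPS + TBHQ, 3466, 3373 and 3863 under PIC, and 2043, 2119 and 2197 under PIC + TBHQ. LPS replicate 3 of *Cxcl2* lay within the LPS + TBHQ libraries, and the interaction was -0.54 ± 0.14 (SE, FDR = 5.1e-04).

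*Ptgs2* (ENSMUSG00000032487, chromosome 1, 149975782 to 149983978, forward strand) encodes COX-2, the inducible enzyme of prostaglandin synthesis. It stood at 1623, 1491 and 1322 CPM under LPS, 973, 878 and 901 under LPS + TBHQ, 4345, 4184 and 4478 under PIC, and 1992, 1980.0 and 2043 under PIC + TBHQ. Both stimuli showed a clear gap between cells with and without TBHQ, which left 62% with LPS and 46.2% with PIC, and the interaction was -0.42 ± 0.10 (SE, FDR = 1.3e-04). *Csf3*, the growth factor of neutrophils, had an interaction of -0.40 ± 0.067 (SE, FDR = 0.00506). The chemokine genes *Ccl3* and *Ccl4*, which attract monocytes, had interactions of -0.35 ± 0.12 (SE, FDR = 0.00173) and -0.30 ± 0.035 (SE, FDR = 0.0238). *Csf3* and *Ccl4* lost their call in DESeq2, with FDRs of 0.375 and 0.0841. Of 20 tested cytokine genes, 2 had a lower interaction (*Tnf* and *Csf3*) and 0 a higher one in edgeR, where 2 were higher at an unadjusted p below 0.05, and of 14 chemokine genes 3 were lower (*Cxcl2*, *Ccl3* and *Ccl4*) and 1 was higher (*Ccl5*), against 1.01% and 0.825% of all tested genes. Limma gave the same counts, and DESeq2, with an adjusted p for 9 of the 20 and 8 of the 14, called 1 cytokine gene and 2 chemokine genes lower and 1 chemokine gene higher. *Cxcl2* and *Ccl3* lost their call in limma on log2(FPKM + 1), with FDRs of 0.0631 and 0.0712, and *Ccl4* in fits without LPS + TBHQ replicate 1, PIC + TBHQ replicate 2 or PIC + TBHQ replicate 3, with FDRs of 0.0653, 0.0511 and 0.0507.

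Some NF-κB subunits and inhibitors belonged to this class. Of 28 genes in the list, 7 had a lower interaction and 0 a higher one in edgeR, against 1.01% and 0.825% of all tested genes, and the median was -0.13. DESeq2, with an adjusted p for 26, called 9 lower and limma 8, neither called any higher, and 1 gene was higher at an unadjusted p below 0.05 in edgeR. With total library size as scaling 4 of them were called and the median was -0.089. The subunit genes *Nfkb1*, *Nfkb2* and *Rel* had interactions of -0.22, -0.25 and -0.27, whereas *Rela* and *Relb* had 0.097 and 0.038, with FDRs of 0.658 and 0.919. *Nfkb1* lost its call with total library size (FDR = 0.0749) and without LPS + TBHQ replicate 1, LPS + TBHQ replicate 2 or PIC + TBHQ replicate 3 (FDR = 0.0713, 0.0708 and 0.0619). *Nfkbia* (ENSMUSG00000021025, chromosome 12, 55536195 to 55539432, reverse strand), which encodes the inhibitor IκBα, was at 219, 206 and 221 CPM under LPS, 166, 169 and 166 under LPS + TBHQ, 390.0, 399.6 and 404 under PIC, and 259, 249 and 261 under PIC + TBHQ. The PIC libraries were the highest and those with TBHQ lay under those without it in each stimulus, with an interaction of -0.27 ± 0.041 (SE, FDR = 0.0051). *Tnfaip3*, the deubiquitinase A20 that ends NF-κB signalling, stood at 145, 136 and 133 CPM under LPS, 93.8, 97.3 and 95.4 under LPS + TBHQ, 341, 356 and 342 under PIC, and 195, 194 and 194 under PIC + TBHQ. TBHQ changed *Tnfaip3* by -0.53 with LPS and -0.83 with PIC, an interaction of -0.30 ± 0.043 (SE, FDR = 0.00142). *Nfkbiz*, the atypical inhibitor needed for a set of secondary genes, had -0.38 ± 0.064 (SE, FDR = 7.1e-04), and *Irak3*, a brake on Toll-like receptor signalling, -0.39 (FDR = 0.00559).

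Signalling genes outside the lists were also members. *Malt1*, the paracaspase that couples receptors to NF-κB, stood at 77.4, 78.7 and 79.6 CPM under LPS, 65.5, 56.6 and 60.8 under LPS + TBHQ, 293, 311 and 268 under PIC, and 146, 145 and 144 under PIC + TBHQ. TBHQ left 77.6% of it with LPS and 49.8% with PIC, an interaction of -0.64 ± 0.088 (SE, FDR = 6.6e-07). *Pde4b*, a phosphodiesterase that degrades cyclic AMP, was at 17, 17.7 and 15.5 CPM under LPS, 18.2, 17.5 and 18 under LPS + TBHQ, 53.9, 49 and 52.9 under PIC, and 33.3, 31.8 and 34.1 under PIC + TBHQ. Its LPS libraries overlapped with and without TBHQ, and the interaction was -0.75 ± 0.078 (SE, FDR = 3.3e-05). *Ppm1k*, the phosphatase that activates breakdown of branched-chain amino acids, had -0.75 ± 0.16 (SE, FDR = 0.00495).

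Immediate early and stress genes gave a few further members. *Egr1*, a transcription factor induced within minutes of a stimulus, stood at 80, 68.6 and 66.9 CPM under LPS, 31.5, 29.5 and 28.7 under LPS + TBHQ, 108, 103 and 95.8 under PIC, and 32.1, 27.6 and 32.1 under PIC + TBHQ. TBHQ left 41.6% of it with LPS and 30% with PIC, and the interaction was -0.47 ± 0.13 (SE, FDR = 0.00288). *Egr1* and *Zfp36*, which encodes the mRNA-destabilising protein tristetraprolin, were the 2 genes of 30 in that list that edgeR called, both lower, where 1.01% of all tested genes were lower; limma added *Ier3*, and DESeq2 *Ier3* and *Klf6*, all lower. Of 11 heat shock genes 3 were lower in edgeR, DESeq2 and limma, against the same 1.01%: *Dnajb1*, a co-chaperone, at -0.38 ± 0.072 (SE, FDR = 0.0028), and the chaperone genes *Hspa8* and *Hsp90aa1* at -0.25 and -0.17. *Hspa8* and *Hsp90aa1* share 38.6% and 47.5% of their words with other genes, so their counts are less certain. *Atf3*, a stress-induced repressor, had an interaction of -0.21 ± 0.064 (SE, FDR = 0.0423) and *Insig1*, which retains the sterol sensor in the endoplasmic reticulum, -0.23 ± 0.053 (SE, FDR = 0.0287). The calls of *Atf3*, *Insig1*, *Zfp36* and *Hsp90aa1* were lost with total library size as scaling, with FDRs of 0.11, 0.0786, 0.0898 and 0.0785. Those of *Atf3*, *Insig1* and *Zfp36* were also lost in several fits that lacked 1 library, with FDRs of 0.117, 0.0856 and 0.12 where it was highest, without LPS + TBHQ replicate 2, LPS replicate 1 and PIC + TBHQ replicate 3.

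The levels in stimulated cells without TBHQ are given here for these genes. Among the 108 genes the median change against the untreated control was 0.51 with LPS and 1.16 with PIC, and among the 68 genes lowered more with LPS it was 0.70 and 0.95. These changes use the same LPS and PIC libraries as the interaction, so they are given side by side only. After 4 h of TBHQ alone, compared in libraries outside the contrast but in the same fit, 43 of the 108 were higher than the control and 16 lower, where 14.2% and 14.8% of all tested genes were. *Tnf* then stood at 308, 319 and 317 CPM against 215, 193 and 180.4 in the control, and *Ptgs2* at 211, 188 and 196 against 82.1, 76.1 and 74.9. Every TBHQ library was above every control library for both genes, unlike the interferon-stimulated genes *Oasl2* and *Ifit3* at the same time. *Egr1* and *Atf3*, of the same class as *Tnf*, were lower at 4 h, with log2 changes of -0.83 and -0.54.

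**Figure D2:**
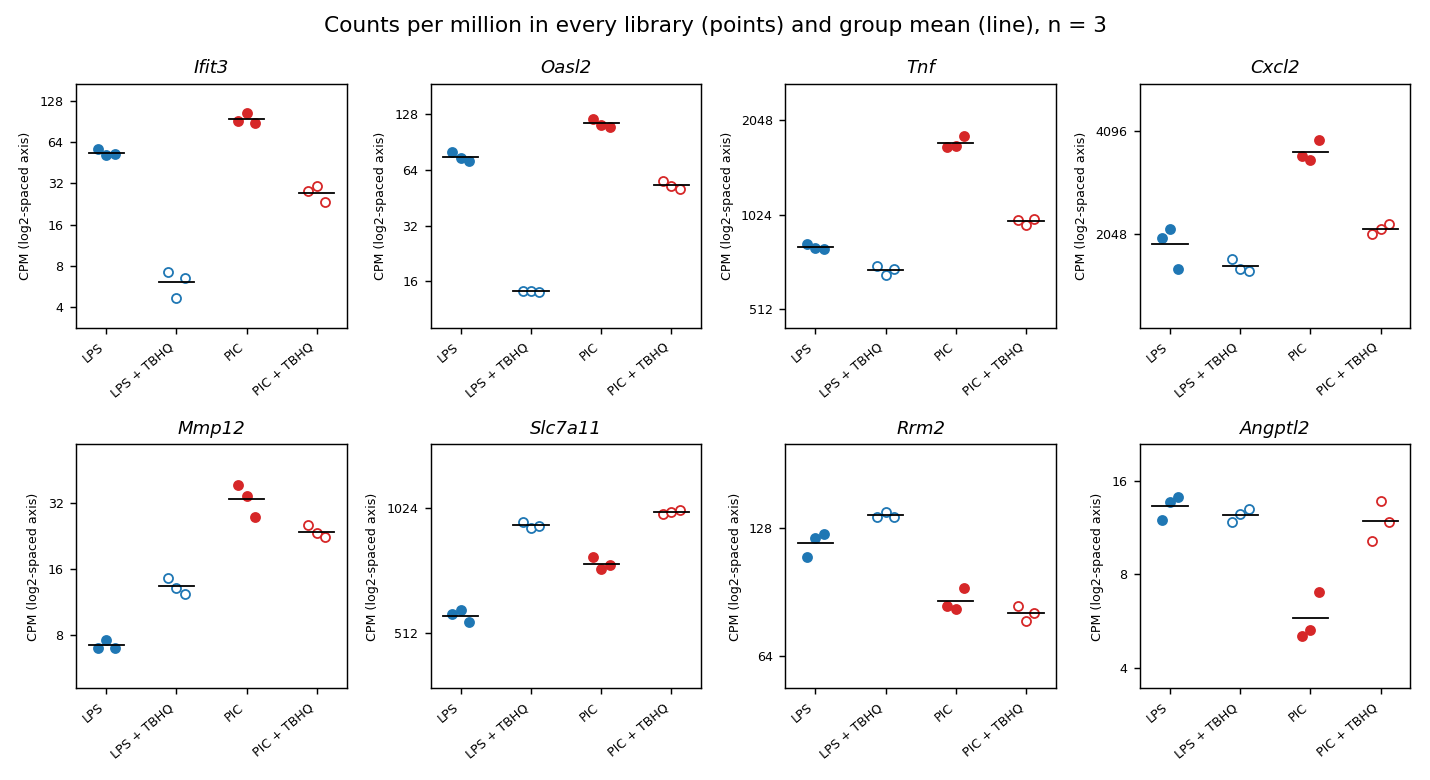
Each panel shows 1 gene in CPM on a log2-spaced axis, with 1 point per library, filled without and open with TBHQ, and a line at the mean of the 3 libraries. Mean *Ifit3* was 53.5 CPM without and 6.13 with TBHQ under LPS, against 94.3 and 27.2 under PIC, whereas mean *Tnf* was 807 and 682 CPM under LPS, against 1730.0 and 974 under PIC.

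For 9 genes TBHQ was called in opposite directions. *Mmp12* (ENSMUSG00000049723, chromosome 9, 7344381 to 7369499, forward strand), the macrophage elastase that degrades elastin, showed the widest contrast, at 6.95, 7.54 and 6.93 CPM under LPS, 14.5, 13 and 12.3 under LPS + TBHQ, 38.7, 34.2 and 27.4 under PIC, and 25.3, 23.3 and 22.2 under PIC + TBHQ. TBHQ raised it with LPS by 0.89 ± 0.079 (SE, log2) and lowered it with PIC by a log2 change of -0.50 ± 0.16. The interaction was -1.39 ± 0.17 (SE, FDR = 3.1e-06). PIC libraries without TBHQ remained the highest and LPS libraries without TBHQ the lowest.

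The other opposite genes moved little. *Kntc1*, a component of the complex that recruits dynein to kinetochores, had -0.42 ± 0.056 (SE, FDR = 0.00114), and *Itga4*, the integrin subunit of VLA-4, stood at 142, 168 and 156 CPM under LPS, 176, 173 and 176 under LPS + TBHQ, 180.1, 167 and 183 under PIC, and 153, 151 and 166 under PIC + TBHQ. The interaction of *Itga4* was -0.35 ± 0.092 (SE, FDR = 0.00176). *Myo10*, an unconventional myosin of filopodia, had -0.36 ± 0.069 (SE, FDR = 4.1e-04). *Lyz1*, a lysozyme gene sharing 16.1% of its words with *Lyz2*, had -0.27 ± 0.053 (SE, FDR = 0.00284), while *Lyz2* had an interaction of -0.037 with an FDR of 0.776. *Txnip*, the inhibitor of thioredoxin, and *Mrtfb*, an actin-regulated coactivator, had interactions of -0.27 and -0.34, and *Clec4a2* and *Nat9*, in the reverse order of stimuli, 0.39 and 0.54, all 4 named after their values were seen.

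TBHQ raised 23 genes more with LPS, among them antioxidant and cell cycle genes. With PIC only 3 of the 23 were called as raised, where 15.8% of all tested genes were, and the median change was -0.02, against 0.22 with LPS. *Slc7a11* (ENSMUSG00000027737, chromosome 3, 49846975 to 50398063, reverse strand), the cystine importer that feeds glutathione synthesis and a known NRF2 target, stood at 568, 581 and 543 CPM under LPS, 947, 920.1 and 928 under LPS + TBHQ, 781, 730.2 and 747 under PIC, and 992, 1004 and 1013 under PIC + TBHQ. The levels with TBHQ were the highest in both stimuli and the LPS libraries without it were the lowest, and the interaction was -0.31 ± 0.043 (SE, FDR = 2.0e-04). *Prdx1*, a peroxidase that reduces hydrogen peroxide, was at 2215, 2216 and 2089 CPM under LPS, 4037, 4025 and 4132 under LPS + TBHQ, 3464, 3603 and 3288 under PIC, and 5488, 5422 and 5505 under PIC + TBHQ. Its interaction was -0.24 ± 0.049 (SE, FDR = 7.7e-04) as a ratio, while the rise in CPM was larger with PIC by 129 CPM. Of 42 tested NRF2 target genes, edgeR called these 2 lower and *Keap1* higher, where 1.01% and 0.825% of all tested genes were, and DESeq2 and limma each called *Txnrd1* lower as well. The median interaction was -0.0055, or 0.038 with total library size as scaling. The medians of their TBHQ changes were 0.56 with LPS and 0.55 with PIC, with 32 genes raised under LPS and 34 under PIC, where 11.7% and 15.8% of all tested genes were raised.

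A few genes of DNA synthesis and mitosis were in this class. *Mki67*, the proliferation marker Ki-67, stood at 163, 183 and 189.8 CPM under LPS, 257, 260.4 and 253 under LPS + TBHQ, 145, 129 and 144 under PIC, and 158, 162 and 164 under PIC + TBHQ. LPS + TBHQ libraries were the highest, and the interaction was -0.32 ± 0.09 (SE, FDR = 0.00298). *Rrm2*, the regulated subunit of ribonucleotide reductase, was at 109.6, 121 and 124 CPM under LPS, 136, 139.6 and 136 under LPS + TBHQ, 83.8, 82.6 and 92.4 under PIC, and 84.1, 77.4 and 80.9 under PIC + TBHQ. TBHQ raised *Rrm2* with LPS by 0.21, its PIC libraries with and without TBHQ overlapped, and the interaction was -0.31 ± 0.083 (SE, FDR = 0.0097). *Rrm1*, the large subunit of the same enzyme, had -0.19 ± 0.037 (SE, FDR = 0.046) and lost its call with total library size (FDR = 0.127), on the 12 libraries alone (FDR = 0.0603) and in several fits that lacked 1 library, with an FDR of 0.122 where it was highest, without LPS + TBHQ replicate 2. Of 20 genes of DNA replication and the G1/S transition edgeR called 2 lower (*Rrm1* and *Rrm2*), where 1.01% of all tested genes were lower, and DESeq2 and limma each added *Mcm3*; the list median was -0.11 and 3 members had a positive value. Of 20 mitotic genes edgeR and limma called *Mki67* alone and DESeq2 added *Bub1b* and *Top2a*, with a list median of -0.17 and 6 positive values. TBHQ raised 19 of the mitotic genes with LPS and 18 with PIC, where 11.7% and 15.8% of all tested genes were raised.

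The 43 genes raised more with PIC fell mostly outside the lists. With LPS 12 of the 43 were called as raised, where 11.7% of all tested genes were, and the median change was 0.0077, against 0.40 with PIC. *Angptl2* (ENSMUSG00000004105, chromosome 2, 33106081 to 33137729, forward strand), a secreted angiopoietin-like protein, stood at 12, 13.7 and 14.3 CPM under LPS, 11.8, 12.6 and 13 under LPS + TBHQ, 5.05, 5.31 and 7.02 under PIC, and 10.3, 13.8 and 11.8 under PIC + TBHQ. The PIC libraries without TBHQ were the lowest and the other 3 groups overlapped, and the interaction was 1.12 ± 0.21 (SE, FDR = 1.1e-04). *Slc43a2*, a transporter of large neutral amino acids, was at 72, 76.7 and 85 CPM under LPS, 104, 110.4 and 103 under LPS + TBHQ, 54.3, 52.6 and 63.5 under PIC, and 108, 98.1 and 95.6 under PIC + TBHQ. It rose with TBHQ in both stimuli, by 0.44 with LPS and 0.82 with PIC, and the interaction was 0.38 ± 0.13 (SE, FDR = 0.00888). Its call was lost in several fits that lacked 1 library, with an FDR of 0.0695 where it was highest, without LPS replicate 3, and in limma on log2(FPKM + 1), with an FDR of 0.107.

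*Keap1*, the cytosolic repressor of NRF2, stood at 62.7, 60.1 and 67.7 CPM under LPS, 61, 65.7 and 61.8 under LPS + TBHQ, 53.8, 58.7 and 53.1 under PIC, and 65.1, 67.3 and 70.5 under PIC + TBHQ. Its interaction was 0.31 ± 0.083 (SE, FDR = 0.0215), with a TBHQ change of -0.017 with LPS, whose libraries overlapped, and 0.29 with PIC. *Keap1* lost its call in several fits that lacked 1 library, with an FDR of 0.107 where it was highest, without LPS replicate 3, and in limma on log2(FPKM + 1), with an FDR of 0.069. *S1pr2*, a receptor of sphingosine-1-phosphate, had 0.38 ± 0.069 (SE, FDR = 0.00647) and an FDR of 0.0519 in limma on log2(FPKM + 0.1). *Ano8*, a protein of membrane contact sites, had 0.41 ± 0.072 (SE, FDR = 0.00515), and *Zfp362*, a zinc finger gene with a mean of 122 counts, 0.87 ± 0.14 (SE, FDR = 0.00506). The median change of the class against the control was -0.096 with LPS and -0.45 with PIC, in comparisons that share libraries with the interaction. At 4 h of TBHQ alone 11 of the 43 were higher than the control and 6 lower, where 14.2% and 14.8% of all tested genes were.

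Many genes of inflammation had no called interaction, and their intervals show how far they could differ. Of 25 tested genes that the study names, 6 had a lower interaction and 0 a higher one in edgeR, against 1.01% and 0.825% of all tested genes, and edgeR's unadjusted p was below 0.05 for 3 with a higher value. DESeq2, with an adjusted p for 18 of the 25, and limma called 5 and 6 lower and 0 higher. Since the study chose these genes on the same samples, the count is not independent. *Il6*, the cytokine that drives the acute phase, stood at 9.87, 10.6 and 9.21 CPM under LPS, 4.73, 3.45 and 3.56 under LPS + TBHQ, 43, 45.2 and 45.7 under PIC, and 12.8, 13.9 and 10.7 under PIC + TBHQ. TBHQ lowered it in both stimuli, and the interaction was -0.51 ± 0.19 (SE, FDR = 0.133), with a 95% interval from limma, not adjusted for the number of genes, of -0.88 to -0.14. In limma on log2(FPKM + 1) *Il6* was called, at -0.71 with an FDR of 0.00886. *Nos2*, the inducible nitric oxide synthase, was at 768, 675 and 721 CPM under LPS, 552, 490.3 and 516 under LPS + TBHQ, 1058, 1052 and 1020.1 under PIC, and 739.6, 684 and 684 under PIC + TBHQ. Its interval was -0.22 to 0.022, around an interaction of -0.097. *Il1b*, the inflammasome-processed cytokine, had the interval -0.58 to 0.22, although TBHQ left 12.5% with LPS and 11% with PIC.

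Among the remaining genes the study names, *Acod1*, the enzyme that makes itaconate, had an interval of -0.28 to -0.078, and *Ccl2*, a monocyte chemokine, one of -0.022 to 0.16. *Cxcl10*, an interferon-induced chemokine, had -0.45 to 0.19. For *Hmox1*, heme oxygenase, the interval was 0.046 to 0.22, and for *Gclm*, a subunit of the enzyme that starts glutathione synthesis, 0.018 to 0.22. *Acod1* was called in the fit on the 12 libraries alone, at -0.19 with an FDR of 0.0035, and without a filter on low counts, at -0.20 with an FDR of 1.2e-04, and *Hmox1* with total library size as scaling, at 0.18 with an FDR of 0.0345. The intervals of *Acod1*, *Ccl2*, *Hmox1* and *Gclm* leave little room for a difference of the size seen for *Oasl2*, whereas those of *Gstp3* (-1.80 to -0.20) and *Ccl12* (-0.57 to 2.47), with means of 35.3 and 30.4 counts, are wide. The interaction of *Oasl2* is among the largest, however. The intervals of *Acod1*, *Hmox1* and *Gclm* include the smallest called size, 0.17, and do not include equal effects.

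The counts for further lists follow, with the shares over all tested genes at the end. Whether any of these lists differed from those shares was not tested. In edgeR 0 of 23 genes of glycolysis and the hypoxia response, 0 of 18 of the endoplasmic reticulum chaperones and unfolded protein response, 0 of 11 of cholesterol efflux and 0 of 93 respiratory chain genes were called, while 3, 3, 2 and 14 had an unadjusted p below 0.05. Limma called 0 in each of these 4 lists, and DESeq2, with an adjusted p for 21, 18, 7 and 77 of them, called *Hif1a* lower in the first and 0 in the rest. Of 91 genes caught by the ribosomal protein pattern the only call in edgeR and limma was *Rps6ka2*, a signalling kinase that shares the start of its symbol and lost its call with total library size (FDR = 0.0537), and DESeq2 called *Rpl27a* and *Rps24* lower as well. Of 23 genes of the ATF4 stress response edgeR called *Ddit3* higher and *Atf3* lower, to which limma added *Cebpb* as higher, and of 23 sterol genes edgeR called *Insig1* lower, to which DESeq2 added *Sqle*. The shares over all tested genes in edgeR were 0.825% higher and 1.01% lower.

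**Figure D3:**
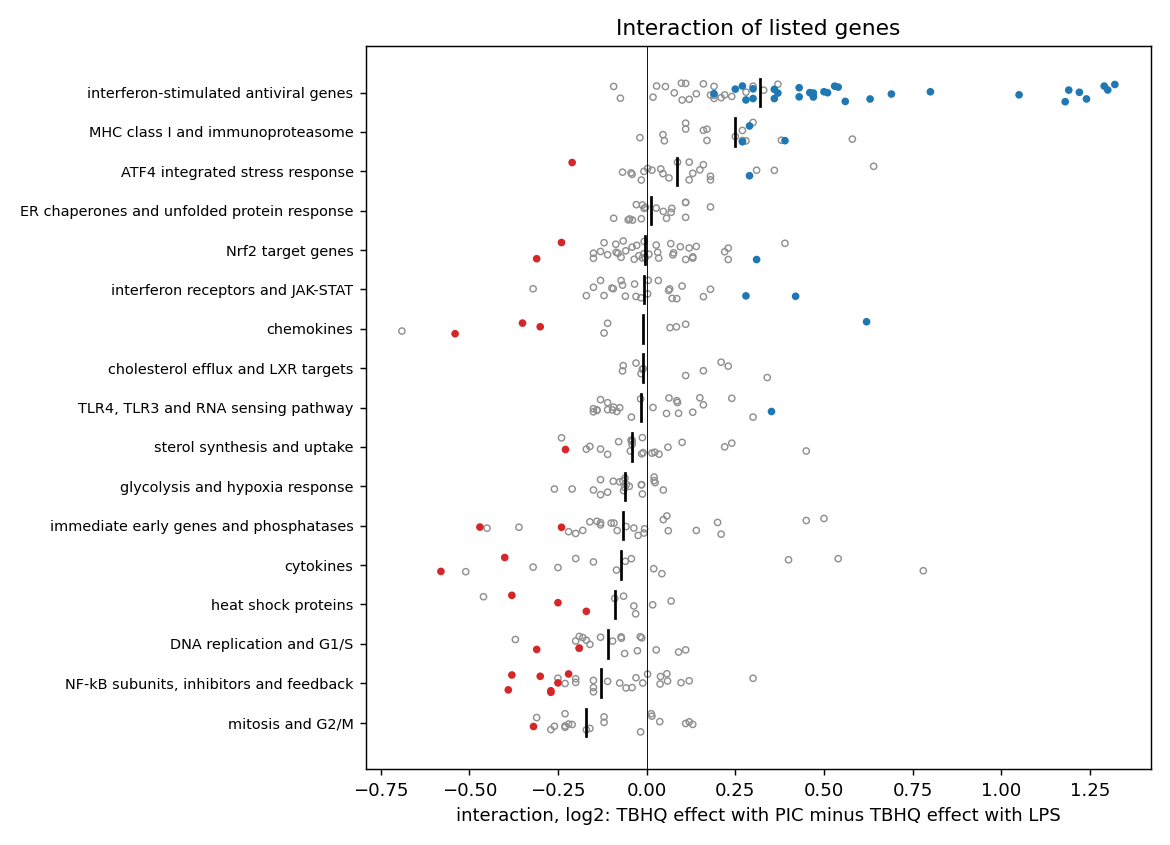
The interaction of each listed gene with a mean of at least 50 counts is plotted by list on the log2 scale, as TBHQ effect with PIC minus that with LPS; filled points are called genes, blue above and red below 0, open points are not called, and the bar is the median of all tested members. Interferon-stimulated genes lie to the right with a median of 0.32, and NF-κB genes to the left with -0.13.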

How the data were processed

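Strand-specific poly(A) libraries of 18 samples were sequenced in pairs, and the authors deposited a table with a count and an FPKM value for each of 56748 genes and each library. The submitters' processing notes name HISAT2 2.0.5, StringTie 1.3.3b and featureCounts 1.5.0-p3, and both GRCm38 and mm39 as the build, so gene positions follow the table and are given without a build. The depth of the 12 libraries was 14423390 to 18851626 counts.

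Counts were fitted in edgeR 4.0.16 (R 4.3.3) with its quasi-likelihood test on all 18 libraries, 1 mean per group, TMM scaling and the filter of filterByExpr, with Benjamini-Hochberg adjustment across the 13691 genes kept. All 6 groups shared 1 estimate of the spread. CPM values were computed from the counts with TMM scaling, apart from the marker sums, which use library totals. Intervals came from limma 3.58.1 with voom weights. Each SE was taken from the spread of a gene's log2 CPM between the 3 libraries of each group. It is not the error behind edgeR's FDR, which draws on all genes and groups, so a ratio of interaction to SE need not match the FDR. Tables were made with pandas 2.3.3, scipy 1.17.1 and numpy 2.4.6, and plots with matplotlib 3.10.9, in Python 3.11.15. The fit was tested on simulated data. Each simulated gene had the same mean in every group, apart from the changed genes, which had at least 50 counts on average. These were changed in PIC + TBHQ alone, as often up as down. There edgeR recovered 74 of 100 genes given an absolute log2 interaction of 0.5 and 97 of 100 given 1, with 6 false calls. The real groups differ in many more genes and smaller interactions were not simulated, so these figures need not hold for the real data.

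Each called gene was put in a class by the stimulus with the larger absolute TBHQ effect and its sign, or as opposite where both effects were called with opposite signs. Genes were named by a rule: in each class the 6 with the largest absolute interaction among protein-coding genes with 50 or more counts on average, an FDR below 0.01 and no overlap in the leading stimulus; in each list up to 3 called members per direction with the lowest FDR; the genes the study names; and the 5 genes on each side of the threshold. The members and lists were chosen with earlier results of these data known. Members of lists and called genes outside this rule are given for context. Results for withheld items are not reported here. Shared words are runs of 50 bases of a gene's GENCODE transcripts that another gene's transcripts also hold.

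The alternatives were DESeq2 1.42.0, limma with voom weights, the 12 libraries alone, RLE and total library size scaling, other filters and thresholds, the replicate number as a block, limma on log2(FPKM + 1) and log2(FPKM + 0.1), the CPM scale and leaving out each library.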

Additional observations from a re-analysis of the deposited data

Results flagged for a closer look

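The TBHQ effect differed between the stimuli by the test of the difference itself for 251 genes. The values are log2 interactions, the effect with PIC minus that with LPS, for the named genes among them. Among genes lowered more with LPS they were 1.33 for *Gbp2b*, 1.32 for *Ifit3*, 1.32 for *Apol9b*, 1.31 for *Serpinb2*, 1.30 for *Oasl2*, 1.29 for *Gbp2*, 1.05 for *Zbp1* and 1.24 for *Gbp3*. In the same class they were 0.62 for *Ccl5*, 0.35 for *Ddx58*, 0.42 for *Jak3*, 0.28 for *Stat2*, 0.29 for *Tapbp*, 0.39 for *Psmb10*, 0.27 for *H2-T23* and 0.29 for *Ddit3*. Among genes lowered more with PIC they were -0.75 for *Ppm1k*, -0.75 for *Pde4b*, -0.64 for *Malt1*, -0.58 for *Tnf*, -0.54 for *Cxcl2*, -0.40 for *Csf3*, -0.35 for *Ccl3* and -0.30 for *Ccl4*. In the same class they were -0.38 for *Nfkbiz*, -0.30 for *Tnfaip3*, -0.27 for *Nfkbia*, -0.21 for *Atf3*, -0.23 for *Insig1*, -0.25 for *Hspa8*, -0.38 for *Dnajb1* and -0.17 for *Hsp90aa1*. In the same class they were -0.47 for *Egr1*, -0.24 for *Zfp36*, -0.42 for *Ptgs2*, -0.32 for *Rps6ka2* and -0.22 for *Nfkb1*. For genes raised more with LPS they were -0.32 for *Mki67*, -0.31 for *Slc7a11*, -0.31 for *Rrm2*, -0.27 for *Fam111a*, -0.26 for *Ifi27*, -0.24 for *Prdx1* and -0.19 for *Rrm1*. For genes raised more with PIC they were 1.12 for *Angptl2*, 0.87 for *Zfp362*, 0.55 for *Fam78a*, 0.41 for *Ano8*, 0.38 for *S1pr2*, 0.38 for *Slc43a2* and 0.31 for *Keap1*. For genes moved in opposite directions they were -1.39 for *Mmp12*, -0.42 for *Kntc1*, -0.36 for *Myo10*, -0.35 for *Itga4* and -0.27 for *Lyz1*.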

How the results depend on the processing

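Of the 56 named genes with an interaction, 36 kept their direction and their side of the threshold under each alternative that gave a value, apart from the CPM scale. The stricter thresholds are left out of this count. The other 20 were *Atf3*, *Ccl3*, *Ccl4*, *Ccl5*, *Csf3*, *Cxcl2*, *Gbp2*, *H2-T23*, *Hsp90aa1*, *Insig1*, *Jak3*, *Keap1*, *Nfkb1*, *Rps6ka2*, *Rrm1*, *S1pr2*, *Serpinb2*, *Slc43a2*, *Stat2* and *Zfp36*. Calls were lost in limma on log2(FPKM + 0.1) for *Atf3*, *Ccl3*, *Ccl4*, *Ccl5*, *Csf3*, *Cxcl2*, *Gbp2*, *H2-T23*, *Jak3*, *Keap1*, *Nfkb1*, *Rps6ka2*, *S1pr2*, *Slc43a2*, *Stat2* and *Zfp36*, and on log2(FPKM + 1) for the same genes apart from *Ccl5*, *Gbp2*, *Jak3* and *S1pr2*. With total library size they were lost for *Atf3*, *Hsp90aa1*, *Insig1*, *Nfkb1*, *Rps6ka2*, *Rrm1* and *Zfp36*, in DESeq2 for *Ccl4* and *Csf3* and in edgeR on the 12 libraries alone for *Rrm1* and *Stat2*. *Atf3* lost its call without LPS replicate 3, LPS + TBHQ replicates 1, 2 or 3, PIC replicates 1 or 2 or PIC + TBHQ replicates 1 or 3 (interaction -0.19 to -0.21, FDR 0.0597 to 0.117). *Ccl4* lost its call without LPS + TBHQ replicate 1 or PIC + TBHQ replicates 2 or 3 (interaction -0.29 to -0.30, FDR 0.0507 to 0.0653). *H2-T23* lost its call without LPS replicate 3, LPS + TBHQ replicates 1 or 2, PIC replicates 1 or 3 or PIC + TBHQ replicate 1 (interaction 0.23 to 0.25, FDR 0.0508 to 0.0962). *Insig1* lost its call without LPS replicate 1, LPS + TBHQ replicates 1 or 3, PIC replicate 1 or PIC + TBHQ replicates 1 or 2 (interaction -0.20 to -0.24, FDR 0.05 to 0.0856). *Jak3* lost its call without LPS replicate 3, PIC replicate 1 or PIC + TBHQ replicate 1 (interaction 0.35 to 0.38, FDR 0.0555 to 0.0765). *Keap1* lost its call without LPS replicate 3, LPS + TBHQ replicates 1 or 3, PIC replicates 1 or 3 or PIC + TBHQ replicate 3 (interaction 0.25 to 0.30, FDR 0.0519 to 0.107). *Nfkb1* lost its call without LPS + TBHQ replicates 1 or 2 or PIC + TBHQ replicate 3 (interaction -0.21 to -0.22, FDR 0.0619 to 0.0713). *Rps6ka2* lost its call without LPS + TBHQ replicate 1 or PIC + TBHQ replicates 1 or 3 (interaction -0.28 to -0.31, FDR 0.0576 to 0.0824). *Rrm1* lost its call without LPS replicate 1, LPS + TBHQ replicates 1, 2 or 3 or PIC + TBHQ replicates 1 or 2 (interaction -0.17 to -0.21, FDR 0.0505 to 0.122). *Slc43a2* lost its call without LPS replicate 3, PIC replicates 1 or 2 or PIC + TBHQ replicate 1 (interaction 0.30 to 0.33, FDR 0.0508 to 0.0695). *Stat2* lost its call without LPS replicate 1, LPS + TBHQ replicates 2 or 3, PIC replicates 1 or 3 or PIC + TBHQ replicates 1 or 2 (interaction 0.22 to 0.28, FDR 0.0621 to 0.118). *Zfp36* lost its call without LPS replicates 2 or 3, LPS + TBHQ replicates 1, 2 or 3, PIC replicate 3 or PIC + TBHQ replicates 2 or 3 (interaction -0.21 to -0.25, FDR 0.053 to 0.12). Among the named genes without a call, *Acod1* gained one on the 12 libraries alone (FDR = 0.0035) and without a filter on low counts (FDR = 1.2e-04), *Hmox1* with total library size (FDR = 0.0345) and *Il6* in limma on log2(FPKM + 1) (FDR = 0.00886). DESeq2 gave no adjusted p for 8 of the 56, which its own filter on the mean left out. Of the 251 called genes, 187 were also called with total library size, 233 with RLE size factors and 219 in DESeq2, all with the same sign. DESeq2 called 260 genes lower, and its classes held 193 lowered more with PIC and 53 raised more with LPS. With edgeR on the 12 libraries alone 26 genes were raised more with PIC, and with a mean of at least 50 counts 36 were raised more with LPS. Without a filter on low counts 380 genes were called and 237 were lower, with 59 raised more with LPS and 14 in opposite directions. With total library size 235 were higher and 74 lower, the classes held 60 lowered more with PIC, 10 raised more with LPS and 131 raised more with PIC, and 4 NF-κB genes were lower. At an FDR below 0.01 there were 115 genes, 55 higher and 60 lower, with 45 lowered more with LPS, 49 lowered more with PIC, 6 raised more with LPS, 10 raised more with PIC, 5 opposite and 4 NF-κB genes lower. With an absolute interaction above 1 as well there were 19 genes, 14 higher and 5 lower, with 13 lowered more with LPS, 4 lowered more with PIC, 0 raised more with LPS, 1 raised more with PIC and 1 opposite, 8 interferon-stimulated genes higher and 0 NF-κB genes lower; these thresholds keep fewer genes by construction, and for the other settings the cause was not tested. On the CPM scale the sign reversed for *Gbp2b* (-4.42), *Ifit3* (-19.8), *Serpinb2* (-46.1), *Oasl2* (-0.271), *Gbp2* (-7.04), *Prdx1* (129), *Gbp3* (-8.52) and *Ccl5* (-353), and with limma on log2(FPKM + 1) *Serpinb2* had -0.016. Fits that each lacked 1 library called 160 to 354 interactions, 72 to 115 higher and 86 to 239 lower. The classes then held 53 to 66 lowered more with LPS, 69 to 173 lowered more with PIC, 9 to 52 raised more with LPS, 16 to 45 raised more with PIC and 6 to 11 opposite. The same fits gave 27 to 30 interferon-stimulated genes higher, 5 to 8 NF-κB genes lower, and 2599 to 3337 TBHQ effects with LPS and 3487 to 4282 with PIC. The lowest counts came without LPS + TBHQ replicate 2 (160 in all, 86 lower, 9 raised more with LPS) and without LPS replicate 3 (72 higher, 16 raised more with PIC), with 74 higher without PIC replicate 1 and 91 lower without LPS + TBHQ replicate 1. With the replicate number as a block 274 genes were called, 125 higher and 149 lower. Deviations of libraries with the same number correlated at -0.0562 to 0.146, 1 of 18 pairs was over 0.1, and 8 of the 12 libraries correlated best with their own number, a hint from the data and not from the design. Depth limits the genes with few counts: the median standard error was 0.12 over all tested genes and 0.094 over those with a mean of at least 50 counts.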
